A study of Mus musculus with 6 samples.

Results

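The genes described here encode the enzymes of mitochondrial fatty acid beta-oxidation and of the steps that feed it or take up its products. They were taken by symbol from the table of expression values, and all 39 listed members were found among its 17924 genes. Of these, 38 had enough reads to be tested, and Acsl6 did not. Nelfb is a subunit of the negative elongation factor, which holds RNA polymerase II close to promoters, and the study asked what its loss does to fat cell formation in the dermis. Dermal fibroblasts from the dorsal skin of newborn (P0) C57BL/6J mice were kept for 14 days in adipocyte differentiation medium and then used for RNA-seq. The CTL group (3 libraries) came from mice that were Nelfb wt/wt or Nelfb fl/wt and carried Pdgfra-Cre. The Nelfb-/- group (3 libraries) was Nelfb fl/fl with Pdgfra-Cre, so that both groups carry the Cre and differ in the floxed alleles. Pdgfra drives the Cre in mesenchymal lineages that include preadipocytes. Which control genotype a CTL library had was not given in the sources used here, and neither was whether each replicate came from a separate animal, so that the p-values measure the spread between these cultures only.

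Beta-oxidation shortens an activated fatty acid in rounds. A long-chain fatty acid is coupled to coenzyme A by an acyl-CoA synthetase, carried across the inner mitochondrial membrane as a carnitine ester, and then taken through dehydrogenation, hydration, a further dehydrogenation and thiolytic cleavage. Electrons from the first dehydrogenation pass through the electron transfer flavoprotein to the respiratory chain, odd-chain remnants leave as propionyl-CoA, and brown fat in particular runs the pathway at a high rate to make heat.

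Expression was given as counts per 1e+06 reads (CPM) with no correction for gene length, and values of each group are listed here in the order of replicates 1, 2 and 3. Depth on the table's genes ranged over the libraries from 17.2 to 29.4 M reads (M, 1e+06). The floor, 3 reads in 1 library, was worth 0.102 to 0.175 CPM. Log2 fold changes are Nelfb-/- over CTL from limma on log2(reads + 1) over the 16252 genes whose mean reached 10 reads, p is Benjamini-Hochberg adjusted over these genes, and a gene is called where the adjusted p is at most 0.05 and the change at least 2-fold. For 1 gene, the smallest p of an exact permutation test of 3 against 3 libraries is 0.1. The transcript of Nelfb stood at 17.3, 19.6 and 22.3 CPM in CTL and at 5.50, 3.90 and 5.55 CPM in Nelfb-/- libraries, a log2 fold change of -1.99 (SE 0.22, adjusted p = 0.0050), in the direction that the labels give. CTL replicate 3 and Nelfb-/- replicate 1 stood apart from the other libraries of their groups on the second principal component, which held 27.7% of the variance, and calls are therefore also given without single libraries. All 8 adipocyte markers examined were in the table and above the floor in at least 1 library, with a summed level of 20575 to 31579 CPM in CTL and of 11063 to 20482 CPM in Nelfb-/- libraries. In bulk RNA, fewer cells of a type and less RNA per cell cannot be told apart.

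Of the beta-oxidation genes tested, 15 passed the test as lower in Nelfb-/- cells, among them genes of dehydrogenation, hydration, electron transfer and the propionyl-CoA branch, 1 passed as higher, and 22 did not pass. Of the 38 tested, 31 had a negative and 7 a positive log2 fold change, with a median of -0.82 beside 0.07 over all genes tested. At the full call, 9 genes fell (23.7%), against 3.64% of all genes tested: Cpt1b, Acads, Acadm, Acadl, Echs1, Hadh, Eci1, Etfb and Pccb. One gene rose, Cpt1a (2.63% of the members), against 7.58% of all genes. With the adjusted p alone, 15 were lower (39.5%), against 5.83% of all genes, adding Acad10, Hadha, Etfa, Etfdh, Oxct1 and Mmut, and Cpt1a was still the single one higher, against 9.96%. All mutant libraries were below all controls at 22 members (57.9%), against 16.1% of all genes, and above at 4 members (10.5%), against 22.0%. The groups of the other 12 overlapped. The number called lower was 3 without Nelfb-/- replicate 3, 4 without CTL replicate 1, 5 without CTL replicate 2, 8 without Nelfb-/- replicate 1, 10 without Nelfb-/- replicate 2 and 12 without CTL replicate 3, and Cpt1a was not called in any of the 6 fits that left out a library.

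**Figure D1:**
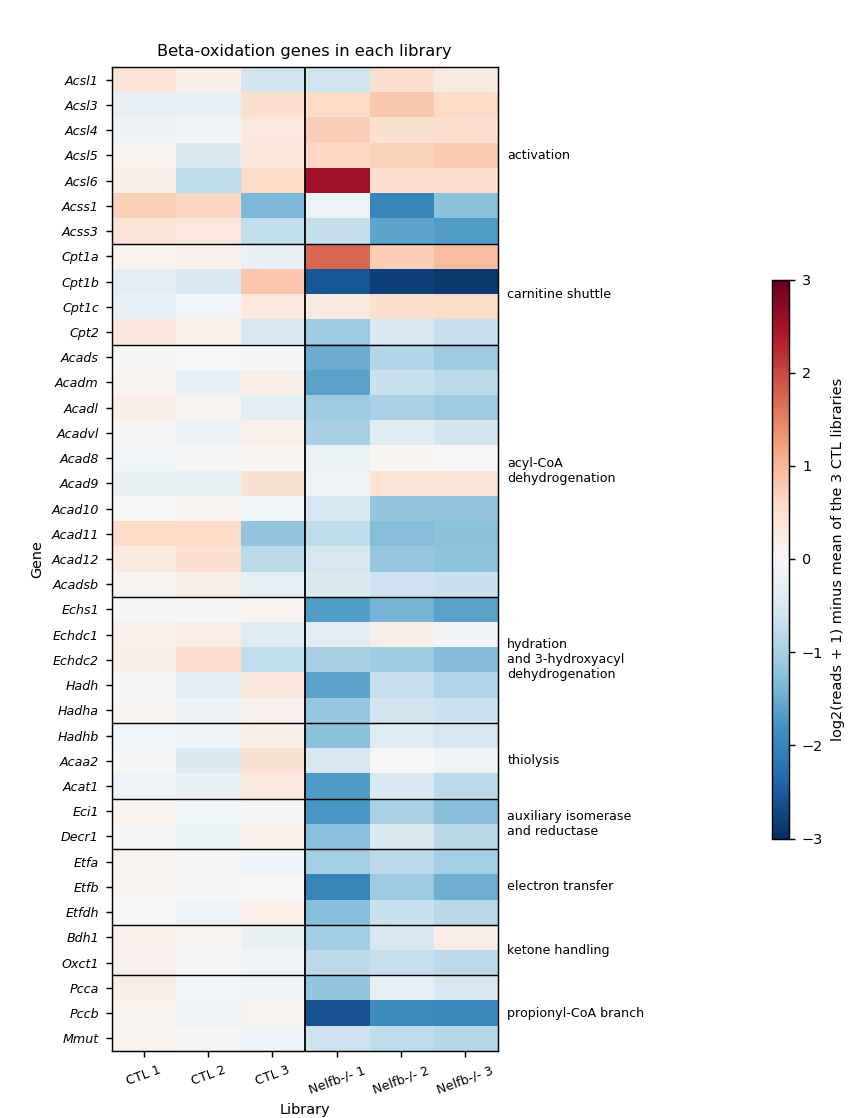
Each row is a member and each column a library, and the colour gives log2(reads + 1) minus the mean of the 3 CTL libraries, with blue for lower and red for higher. The Nelfb-/- columns are mostly blue below the carnitine shuttle, darkest at Cpt1b and Pccb, and red at Cpt1a and at Acsl3, Acsl4 and Acsl5.

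**Figure D2:**
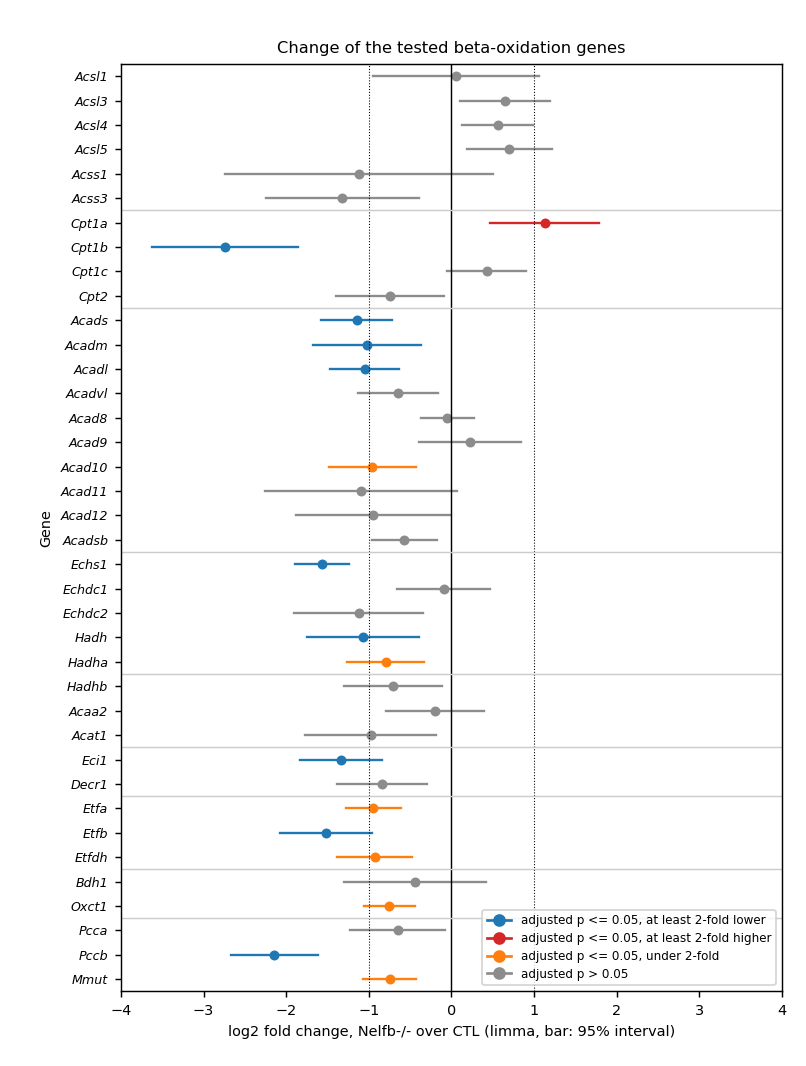
Points are log2 fold changes of the 38 tested members, bars their 95% intervals, and dotted lines mark a 2-fold change in either direction. The 9 blue genes lie at or beyond the 2-fold line on the lower side, and Cpt1a is the 1 red gene on the higher side.

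Promoter sequence was examined for what the members share. RefSeq start sites (GRCm38.p6) were held for 32 of the 39 members, with 38 windows that run from 250 bases before to 50 bases after a start. The GC box GGGCGG, read on both strands, was present in 68.4% of these windows, beside 60.2% of the windows of all genes tested. CCAAT, read likewise, was present in 44.7% beside 37.7%, and TATAAA in 0 of 38 windows beside 7.65%. The median GC content was 60.5% beside 60.3%. TCAAGGTCA, the element of estrogen-related receptors, was found at Acsl6 alone (2.63% of windows beside 0.231%), and the E-box CACGTG at Echdc2 alone (2.63% beside 9.70%). The half-site AGGTCA repeated in the same direction with 1 base between, bound by PPAR with RXR, was found in 0 of 38 windows beside 0.0349%. This exact string was in only 5 of 14315 windows of the genes tested. The 0 therefore cannot tell whether the members have PPAR sites. A match is a description of letters in a window and not of a bound site. Stretches ahead of the annotated start, free of annotated exons, are printed for genes on which the results turn: the interval shared by Hadha and Hadhb, which lie head to head, the 2 subunits of the electron transfer flavoprotein, the called genes Pccb and Echs1, and the gene that rose, Cpt1a. Capitals mark GGGCGG or CCAAT and their complements (CCGCCC and ATTGG), and each is written 5′ to 3′ on the strand of the gene named.
Hadhb (chr5:30155163-30155247, plus strand): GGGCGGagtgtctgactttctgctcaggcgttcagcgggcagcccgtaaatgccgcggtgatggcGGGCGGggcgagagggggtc
Etfa (chr9:55512244-55512393, minus strand): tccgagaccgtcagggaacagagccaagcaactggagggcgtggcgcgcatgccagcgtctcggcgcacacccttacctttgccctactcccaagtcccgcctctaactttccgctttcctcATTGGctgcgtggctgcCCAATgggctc
Etfb (chr7:43443922-43444071, plus strand): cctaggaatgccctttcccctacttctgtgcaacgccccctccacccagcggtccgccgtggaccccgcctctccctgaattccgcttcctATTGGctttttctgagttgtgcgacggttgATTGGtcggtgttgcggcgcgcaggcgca
Pccb (chr9:101034899-101035048, minus strand): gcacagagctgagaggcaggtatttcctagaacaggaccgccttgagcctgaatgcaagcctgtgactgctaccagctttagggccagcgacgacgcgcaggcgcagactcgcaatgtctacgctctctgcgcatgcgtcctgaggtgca
Echs1 (chr7:140116477-140116626, minus strand): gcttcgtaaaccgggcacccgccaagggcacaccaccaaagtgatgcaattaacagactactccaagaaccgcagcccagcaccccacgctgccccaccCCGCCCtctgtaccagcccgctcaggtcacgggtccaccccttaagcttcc
Cpt1a (chr19:3323135-3323284, plus strand): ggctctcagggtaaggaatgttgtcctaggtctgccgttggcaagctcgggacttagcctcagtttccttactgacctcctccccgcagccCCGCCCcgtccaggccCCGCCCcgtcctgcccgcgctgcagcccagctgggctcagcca
The Cpt1a stretch lies inside the annotated gene, ahead of the RefSeq start at position 3323301, and outside its annotated exons. Etfa and Etfb, whose products form 1 flavoprotein, each held 2 CCAAT matches in the printed bases, and Pccb held no match to a searched motif.

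At the activation step, 6 synthetase genes were tested and 0 were called, a count near the shares of 3.64% lower and 7.58% higher over all genes. Of the 6, 4 had a positive log2 fold change, and the median log2 fold change was 0.31. Acsl1, the main long-chain acyl-CoA synthetase of fat cells and a target of PPARG, was the member with the highest level per kilobase of transcript in CTL cells, at 641 CPM per kb beside 672 in Nelfb-/- cells. It stood at 3120, 2759 and 1612 CPM in CTL and at 1596, 3341 and 2919 CPM in Nelfb-/- libraries. The lowest library of each group lay at nearly the same value, CTL replicate 3 and Nelfb-/- replicate 1, and the groups overlapped throughout. The log2 fold change was 0.06 (95% interval -0.95 to 1.06, adjusted p = 0.95), a sign that turned to -0.01 with median-ratio scaling and to -0.02 with quantile normalization. Acsl1 made up 95.4% ± 2.75 (SD, n = 3) of the summed CPM per kb of the Acsl genes in CTL and 93.6% ± 2.64 in Nelfb-/- cells.

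The minor long-chain synthetases Acsl3, Acsl4 and Acsl5 had the opposite sign to most members. Their log2 fold changes were 0.65, 0.56 and 0.70 with adjusted p of 0.10, 0.081 and 0.073, so that none of them passed the test, although all mutant libraries were above all controls at each. Without CTL replicate 3 all 3 passed the adjusted p (0.012, 0.022 and 0.025), with changes under 2-fold. Acsl6, a form best known from brain, was close to the floor at 0.225, 0.0933 and 0.306 CPM in CTL and at 1.33, 0.291 and 0.286 CPM in Nelfb-/- libraries, where replicate 1 was the high one. Acss1 and Acss3 are mitochondrial synthetases for acetate and other short acyl chains. Acss3 stood at 321, 298 and 145 CPM in CTL and at 147, 80.7 and 75.8 CPM in Nelfb-/- libraries (log2 fold change -1.32, SE 0.39, adjusted p = 0.066). Acss1 stood at 47.1, 44.8 and 11.2 CPM in CTL and at 25.7, 7.39 and 12.2 CPM in Nelfb-/- libraries (log2 fold change -1.11, SE 0.68, adjusted p = 0.31). At both genes CTL replicate 3 was the lowest control and Nelfb-/- replicate 1 the highest mutant library, and the groups overlapped. Acss3 was called lower without CTL replicate 3 and without Nelfb-/- replicate 1.

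The carnitine shuttle held the largest fall among the tested members and the single called rise, both in genes for the same reaction. Carnitine palmitoyltransferase 1, the step that malonyl-CoA inhibits, is made in a liver-type form (Cpt1a), a form of muscle and brown fat (Cpt1b) and a brain form (Cpt1c). Cpt1b stood at 13.8, 12.4 and 30.9 CPM in CTL and at 2.90, 2.48 and 2.35 CPM in Nelfb-/- libraries. The mutant values were close together and the lowest control was far above them. Cpt1b was 6.69-fold lower (log2 fold change -2.74, SE 0.37, adjusted p = 0.0080) and was called under all 13 alternatives. A protein-coding gene model, Gm44502, shares 81.4% of the exon bases of Cpt1b on the same strand, and was listed at mean levels of 0.588 CPM (CTL) and 0.119 CPM (Nelfb-/-), so that reads of the pair may have been divided. Cpt1a stood at 52.7, 53.9 and 41.9 CPM in CTL and at 163, 82.1 and 93.6 CPM in Nelfb-/- libraries, with replicate 1 the highest and no overlap. Its log2 fold change was 1.13 (SE 0.28, adjusted p = 0.039), and the adjusted p lay between 0.026 and 0.11 with 1 library left out. Without Nelfb-/- replicate 1 the adjusted p was 0.026 but the change was under 2-fold.

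On the scale of CPM per kb, Cpt1a made up 58.5%, 59.1% and 37.2% of the 3 Cpt1 genes in CTL and 85.3%, 72.4% and 74.2% in Nelfb-/- libraries. The share of Cpt1b was 22.9%, 20.3% and 40.8% in CTL and 2.25%, 3.26% and 2.78% in Nelfb-/- libraries. Shares of neither gene overlapped between the groups, while that of Cpt1c did, at 20.4% ± 1.71 in CTL and 19.9% ± 6.50 in Nelfb-/- cells (SD, n = 3). The summed level of the 3 genes was 20.9 to 26.1 CPM per kb in CTL and 26.2 to 44.4 CPM per kb in Nelfb-/- libraries. The ratio of Cpt1b to Cpt1a in CPM was 0.262, 0.230 and 0.736 in CTL and 0.0177, 0.0302 and 0.0251 in Nelfb-/- libraries, a difference of -3.90 in log2 (exact two-sided permutation p = 0.1, the smallest that 3 against 3 libraries can give, 0.17 when adjusted over 5 such ratios). Markers of brown fat were also lower: Cidea, Cox7a1 and Cox8b summed to 17.6 to 53.8 CPM in CTL and to 0.522 to 1.80 CPM in Nelfb-/- libraries, CTL replicate 3 was the highest control of both, Nelfb-/- replicate 1 was the highest mutant library of Cpt1b and the lowest of these markers, and Ucp1, the uncoupling protein that defines brown fat, was not in the table. Their part in the result was not tested. Skeletal muscle also uses Cpt1b. Its markers summed to 7.26 to 8.16 CPM in CTL and to 43.4 to 93.6 CPM in Nelfb-/- libraries. Their part was not tested either. Cpt2, which frees the acyl group again inside the mitochondrion, stood at 199, 175 and 111 CPM in CTL and at 73.2, 114 and 99.2 CPM in Nelfb-/- libraries. Its groups met at CTL replicate 3 and Nelfb-/- replicate 2, and the change was not called (log2 fold change -0.74, SE 0.27, adjusted p = 0.12).

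**Figure D3:**
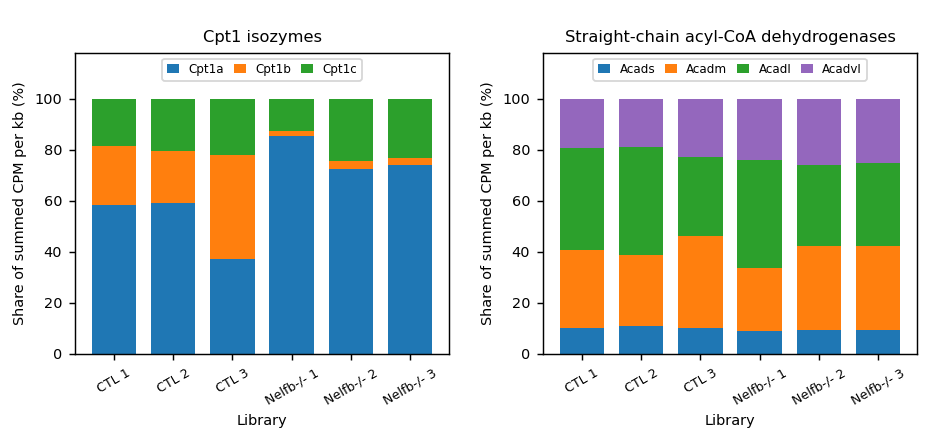
Bars show, for each library, the share in percent of every isozyme in the summed CPM per kb of its family, on the left for Cpt1 and on the right for the straight-chain acyl-CoA dehydrogenases. The Cpt1b band is 20.3% to 40.8% in CTL and 2.25% to 3.26% in Nelfb-/- libraries, while the widest shift without overlap among the 4 dehydrogenases is that of Acadvl, from 18.7% to 22.9% in CTL to 24.1% to 26.1% in Nelfb-/- libraries.

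Of the 4 dehydrogenases that divide straight acyl chains by length, 3 fell, against 3.64% of all genes called lower. Acads, Acadm, Acadl and Acadvl act on short, medium, long and very long acyl-CoA, and their summed level was 478 to 534 CPM per kb in CTL and 209 to 300 CPM per kb in Nelfb-/- libraries. Acadl, the highest of the step per kilobase, stood at 410, 389 and 289 CPM in CTL and at 169, 182 and 168 CPM in Nelfb-/- libraries (log2 fold change -1.05, SE 0.17, adjusted p = 0.013). Acads stood at 98.5, 97.4 and 94.0 CPM in CTL and at 34.3, 52.5 and 46.1 CPM in Nelfb-/- libraries (log2 fold change -1.15, SE 0.18, adjusted p = 0.011). The controls of Acads agreed within a few CPM, and every mutant library was far below them. Acadm, the gene of medium-chain acyl-CoA dehydrogenase, stood at 337, 272 and 363 CPM in CTL and at 106, 202 and 184 CPM in Nelfb-/- libraries (log2 fold change -1.02, SE 0.27, adjusted p = 0.0499), just inside the threshold. Acadvl did not pass (log2 fold change -0.65, adjusted p = 0.076), although its groups did not overlap. Of the summed level per kb, Acadvl made up 18.7% to 22.9% in CTL and 24.1% to 26.1% in Nelfb-/- libraries, and Acads 9.87% to 10.9% and 8.78% to 9.36%. The shares of Acadm and Acadl overlapped. Without CTL replicate 1, CTL replicate 2 or Nelfb-/- replicate 3, the adjusted p was 0.056, 0.061 and 0.073 for Acadl, and 0.051, 0.052 and 0.058 for Acads, while Acads was under 2-fold without Nelfb-/- replicate 1. The call of Acadm was lost in each of the 6 fits without 1 library (adjusted p from 0.041 to 0.15, the lowest without Nelfb-/- replicate 1, where the change was under 2-fold). It was also lost with a pseudocount of 0.5 reads (adjusted p = 0.0503), with quantile normalization (0.055) and without the abundance trend (0.069). Part of the exon bases of Acadvl, 42.9%, lie opposite Dvl2, and a 93.5% identical copy of part of Acadm, Gm5131, was in the table. Whether the counting used strand was not given in the sources used here.

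The acyl-CoA dehydrogenases outside that series were mixed. Acad10 and Acad12 lie side by side on chromosome 5, with 2087 bases between them, and are 95.3% identical over 1614 bases, so that reads may have been divided between them. Acad10 stood at 17.7, 18.4 and 16.6 CPM in CTL and at 12.1, 7.88 and 7.67 CPM in Nelfb-/- libraries (log2 fold change -0.96, SE 0.22, adjusted p = 0.033), below the 2-fold limit. It was called lower with median-ratio scaling (-1.02, adjusted p = 0.027), with quantile normalization (-1.12, adjusted p = 0.028) and without Nelfb-/- replicate 1 (-1.17, adjusted p = 0.013). Its adjusted p lay from 0.11 to 0.13 when CTL replicate 1, CTL replicate 2, Nelfb-/- replicate 2 or Nelfb-/- replicate 3 was left out. The ratio of Acad12 to Acad10 was 1.66, 1.84 and 0.811 in CTL and 1.39, 1.36 and 1.35 in Nelfb-/- libraries, so that CTL replicate 3 lay below and the other controls above every mutant library. The means differed by 0.01 in log2 (exact permutation p = 1.0), with an SD of 0.64 in CTL, and rest on CTL replicate 3. Acad11, which acts on longer chains and hydroxylated acyl-CoA, stood at 213, 219 and 63.7 CPM in CTL and at 84.2, 59.5 and 61.2 CPM in Nelfb-/- libraries (log2 fold change -1.09, SE 0.49, adjusted p = 0.18). Here CTL replicate 3 lay among the mutant libraries, and without it Acad11 and Acad12 were called lower. Acad8 and Acadsb belong to branched-chain amino acid breakdown and Acad9 also serves the assembly of respiratory complex I. Of these, Acadsb had a log2 fold change of -0.57 (adjusted p = 0.064) with no overlap, and Acad8 and Acad9 had -0.05 and 0.22 with overlap.

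All 3 genes of electron transfer from the dehydrogenases were lower past the adjusted p, against 5.83% of all genes. Etfa and Etfb encode the subunits of the flavoprotein and Etfdh the oxidoreductase that hands its electrons to ubiquinone. Etfb had the highest level per kb of the step, and stood at 232, 212 and 222 CPM in CTL and at 55.7, 104 and 80.4 CPM in Nelfb-/- libraries, 2.86-fold lower (log2 fold change -1.52, SE 0.23, adjusted p = 0.011). Etfa stood at 202, 193 and 174 CPM in CTL and at 92.9, 110 and 93.1 CPM in Nelfb-/- libraries (log2 fold change -0.94, SE 0.14, adjusted p = 0.0096). Etfdh stood at 128, 115 and 142 CPM in CTL and at 52.6, 80.6 and 71.5 CPM in Nelfb-/- libraries (log2 fold change -0.93, SE 0.19, adjusted p = 0.024). No group overlapped at the 3 genes. Etfa and Etfdh were under the 2-fold limit. Etfa was called with median-ratio scaling (-1.01) and without CTL replicate 3 or Nelfb-/- replicate 2, and Etfdh was called without Nelfb-/- replicate 2 (-1.06). Without Nelfb-/- replicate 3 the adjusted p was 0.057 for Etfb, 0.064 for Etfa and 0.089 for Etfdh, and that of Etfdh was also over 0.05 without CTL replicate 1 (0.087) or CTL replicate 2 (0.069). The ratio of the subunit genes was lower in each mutant library. Etfb over Etfa was 1.15, 1.10 and 1.28 in CTL and 0.600, 0.947 and 0.863 in Nelfb-/- libraries, a difference of -0.57 in log2 (exact permutation p = 0.1, 0.17 adjusted over 5 ratios). Gm45233, which is not in the table, shares 53.0% of the exon bases of Etfb.

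Hydration and the second dehydrogenation held the fall with the lowest adjusted p among the tested members. Echs1, the short-chain enoyl-CoA hydratase, which also acts in valine breakdown, stood at 194, 192 and 217 CPM in CTL and at 62.4, 76.2 and 65.8 CPM in Nelfb-/- libraries. Both groups were tight and widely separated. It was 2.96-fold lower (log2 fold change -1.56, SE 0.14, adjusted p = 0.0035) and was called under all 13 alternatives. Hadh, the dehydrogenase for medium and short 3-hydroxyacyl-CoA, stood at 179, 148 and 234 CPM in CTL and at 60.6, 113 and 98.4 CPM in Nelfb-/- libraries (log2 fold change -1.07, SE 0.28, adjusted p = 0.049). This call was at the threshold and was lost in each of the 6 fits without 1 library (adjusted p from 0.059 to 0.14), with quantile normalization (0.056) and without the abundance trend (0.071). Echdc2, a hydratase-like gene, stood at 37.4, 47.1 and 19.7 CPM in CTL and at 16.4, 15.5 and 13.2 CPM in Nelfb-/- libraries (log2 fold change -1.12, SE 0.33, adjusted p = 0.065), and was called without CTL replicate 3. Echdc1, a proofreading decarboxylase for ethylmalonyl-CoA found in the cytosol, was the highest of the step per kb. It stood at 500, 521 and 343 CPM in CTL and at 351, 507 and 415 CPM in Nelfb-/- libraries, which overlapped (log2 fold change -0.09, 95% interval -0.65 to 0.47, adjusted p = 0.82). Of its exon bases, 75.9% are shared with Rnf146 on the opposite strand, a gene with mean levels of 50.7 CPM (CTL) and 39.6 CPM (Nelfb-/-).

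The trifunctional protein, which carries hydration, dehydrogenation and thiolysis for long chains, is built from the products of Hadha and Hadhb. The genes run in opposite directions on chromosome 5 from start sites with 85 bases between them, the interval printed above with its 2 GC boxes. Hadha stood at 309, 263 and 326 CPM in CTL and at 135, 197 and 190 CPM in Nelfb-/- libraries (log2 fold change -0.80, SE 0.19, adjusted p = 0.039). Hadhb stood at 94.9, 93.4 and 117 CPM in CTL and at 42.8, 77.4 and 71.8 CPM in Nelfb-/- libraries (log2 fold change -0.71, SE 0.25, adjusted p = 0.11). Neither gene overlapped between the groups, and replicate 1 was the lowest mutant library of both. Hadhb over Hadha was 0.307, 0.355 and 0.357 in CTL and 0.316, 0.393 and 0.378 in Nelfb-/- libraries, a difference of 0.09 in log2 (exact permutation p = 0.5). With 3 libraries a group this does not show that the ratio was kept. The Hadha adjusted p was 0.043 without Nelfb-/- replicate 1 and between 0.061 and 0.13 without any other library. Hadhb has copies 99.8% and 97.6% identical in the annotation, Gm13910 and Gm9108, which could take part of its reads.

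Of the 3 thiolysis genes tested, 0 passed the adjusted p, a count near the shares of 5.83% lower and 9.96% higher over all genes. Acaa2, the mitochondrial 3-ketoacyl-CoA thiolase and the highest of the step per kb, stood at 131, 102 and 184 CPM in CTL and at 97.3, 137 and 123 CPM in Nelfb-/- libraries. The groups overlapped (log2 fold change -0.20, 95% interval -0.79 to 0.40, adjusted p = 0.62). Acat1, which cleaves acetoacetyl-CoA, had a log2 fold change of -0.98 (adjusted p = 0.096) with no overlap. Eci1 and Decr1 prepare unsaturated fatty acids for the spiral by moving or reducing their double bonds. Eci1 stood at 109, 98.1 and 106 CPM in CTL and at 31.1, 53.0 and 42.7 CPM in Nelfb-/- libraries, 2.52-fold lower (log2 fold change -1.34, SE 0.21, adjusted p = 0.011). All of its mutant values were far below the controls, and the adjusted p was 0.0502 without CTL replicate 1 and 0.059 without Nelfb-/- replicate 3. Decr1 had the same sign with no overlap (log2 fold change -0.84, adjusted p = 0.053).

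The propionyl-CoA branch held the second largest fall among the tested members. Pcca and Pccb encode the biotin-carrying and the carboxyltransferase subunits of propionyl-CoA carboxylase, and Mmut the mutase that turns methylmalonyl-CoA into succinyl-CoA. Pccb stood at 83.6, 72.5 and 87.1 CPM in CTL and at 13.3, 21.5 and 21.3 CPM in Nelfb-/- libraries. Every mutant library was far below the lowest control, and the gene was 4.42-fold lower (log2 fold change -2.14, SE 0.22, adjusted p = 0.0042) and called under all 13 alternatives. Pcca had a log2 fold change of -0.65 (SE 0.24, adjusted p = 0.12) with no overlap. Mmut stood at 123, 117 and 103 CPM in CTL and at 74.0, 66.8 and 63.4 CPM in Nelfb-/- libraries (log2 fold change -0.75, SE 0.13, adjusted p = 0.016). The ratio of the carboxylase subunit genes was lower in the mutant libraries, with no overlap. Pccb over Pcca was 1.20, 1.23 and 1.52 in CTL and 0.480, 0.431 and 0.482 in Nelfb-/- libraries, a difference of -1.50 in log2 (exact permutation p = 0.1, 0.17 adjusted over 5 ratios). The adjusted p of Mmut was over 0.05 without CTL replicate 1 (0.074), CTL replicate 2 (0.074), Nelfb-/- replicate 2 (0.064) or Nelfb-/- replicate 3 (0.089).

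**Figure D4:**
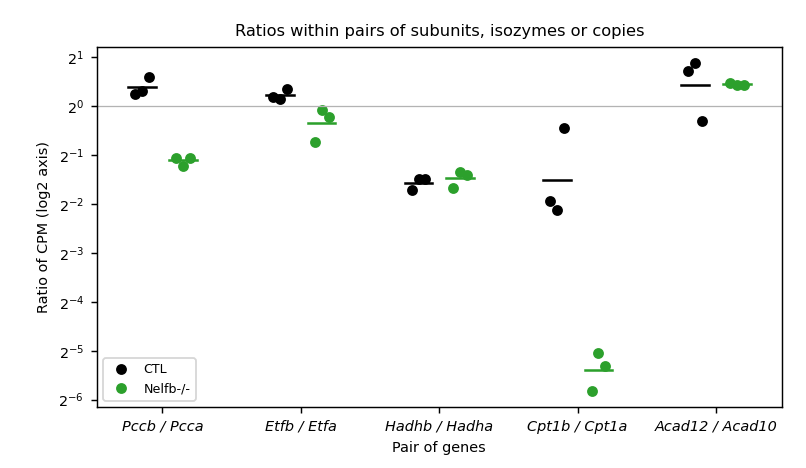
Points are the ratio of CPM within 5 pairs of genes in each library on a log2 axis, black for CTL and green for Nelfb-/-, and lines are the geometric means of 3 libraries. Pccb over Pcca, Etfb over Etfa and Cpt1b over Cpt1a lie lower in every Nelfb-/- library, while Hadhb over Hadha and Acad12 over Acad10 overlap.

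The 2 genes of ketone handling were Oxct1, which lets cells outside the liver use ketone bodies, and Bdh1, which interconverts them. Oxct1 stood at 248, 223 and 212 CPM in CTL and at 133, 140 and 132 CPM in Nelfb-/- libraries (log2 fold change -0.75, SE 0.13, adjusted p = 0.014), with tight mutant values and no overlap. It stayed under the 2-fold limit, and its adjusted p was over 0.05 without CTL replicate 1 (0.068), CTL replicate 2 (0.064), Nelfb-/- replicate 2 (0.053) or Nelfb-/- replicate 3 (0.085). Bdh1 was low, at 2.08 to 5.05 CPM in all 6 libraries, and overlapped (log2 fold change -0.44, adjusted p = 0.44).

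Genes that serve the pathway without being members were called lower or not at all. Of 22 listed, 21 were tested, and 6 were called lower (28.6%, against 3.64% of all genes) and 0 higher (against 7.58%), with a median log2 fold change of -0.99. With the adjusted p alone 7 were lower (33.3%, against 5.83% of all genes) and 0 higher (against 9.96%). A count of 0 among 21 genes is near the latter shares. Slc22a5 takes carnitine into the cell, Slc25a20 exchanges acylcarnitine for carnitine across the inner membrane, and Crat is the transferase for short chains. Slc22a5 stood at 36.4, 42.1 and 31.7 CPM in CTL and at 18.4, 17.6 and 17.3 CPM in Nelfb-/- libraries (log2 fold change -1.04, adjusted p = 0.0097). Slc25a20 stood at 83.3, 77.9 and 62.2 CPM in CTL and at 25.4, 38.1 and 34.6 CPM in Nelfb-/- libraries (log2 fold change -1.20, adjusted p = 0.014), and Crat had a log2 fold change of -1.30 (adjusted p = 0.040). Crat stood at 477, 472 and 235 CPM in CTL and at 121, 179 and 165 CPM in Nelfb-/- libraries. At Slc22a5, Slc25a20, Crat, Hsd17b10, Mlycd and Ppargc1b every mutant library was below every control. Hsd17b10, a dehydrogenase of isoleucine and short-chain acyl-CoA breakdown, stood at 171, 150 and 77.9 CPM in CTL and at 29.5, 41.7 and 32.1 CPM in Nelfb-/- libraries (log2 fold change -1.88, adjusted p = 0.014). Mlycd, which removes malonyl-CoA, had a log2 fold change of -0.79 (adjusted p = 0.044), under the 2-fold limit. The coactivator gene Ppargc1b stood at 20.2, 19.2 and 23.6 CPM in CTL and at 9.01, 11.6 and 9.63 CPM in Nelfb-/- libraries (log2 fold change -1.06, adjusted p = 0.013). Of the other regulators, Ppara had a log2 fold change of -1.10 with an adjusted p of 0.067. The number of these genes called lower was 0 without CTL replicate 2 or Nelfb-/- replicate 3, 2 without CTL replicate 1, and 9 without CTL replicate 3. Of the 6 fits without 1 library, 4 called Slc22a5 and Hsd17b10, 3 called Slc25a20, 1 called Crat (without CTL replicate 3) and another 1 called Ppargc1b (without Nelfb-/- replicate 2).

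The members did not vary together within a group. CTL replicate 3 was below both other controls at 18 of the 38 tested members, above both at 18 and between them at 2. Nelfb-/- replicate 1 was below both other mutant libraries at 24, above both at 11 and between them at 3. At 15 members CTL replicate 3 was the highest control and Nelfb-/- replicate 1 the lowest mutant library, among them Acadm, Acadvl, Echs1, Hadh, Hadha, Hadhb, Acat1 and Pccb. At 9 members the reverse held, namely Acss1, Acss3, Cpt1a, Acad10, Acad11, Acad12, Acadsb, Echdc2 and Mmut. Hadha and Hadhb were both in the first set, and Acss1 and Acss3 both in the second. Opposite places of these libraries were not particular to the members. Over the 16252 genes tested, deviations of CTL replicate 3 and Nelfb-/- replicate 1 from their group means correlated at -0.63. The same counts were not made over all genes.

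Markers of several cell types differed between the groups as well. The summed adipocyte markers were 0.581 of the CTL mean in Nelfb-/- cells, a log2 ratio of -0.78, and 20 of the 38 tested members had a log2 fold change below that and 18 above. Of the 8 adipocyte markers, 0 were called lower, a count near the share of 3.64% over all genes, and Plin1 and Fabp4 had log2 fold changes of -1.02 and -1.04 (adjusted p = 0.12 and 0.24). Lep, the leptin gene, was called higher, with a log2 fold change of 5.26 (adjusted p = 0.014). Fibroblast markers summed to 4138 to 16150 CPM in CTL and to 7715 to 32057 CPM in Nelfb-/- libraries, with 0 of 6 called, near the shares of 3.64% lower and 7.58% higher over all genes. Macrophage markers summed to 124 to 484 CPM in CTL and to 1235 to 4302 CPM in Nelfb-/- libraries, with 5 of 6 called higher, against 7.58% of all genes, and replicate 1, the highest, was also the library with the highest Cpt1a. Melanocyte markers summed to 1.22 to 1.36 CPM in CTL and to 18.8 to 37.1 CPM in Nelfb-/- libraries, and Schwann cell markers to 41.9 to 57.1 and 86.0 to 109 CPM. Endothelial and keratinocyte markers summed to at most 15.7 and 9.91 CPM in any library. The part of these cell types in the members' values was not tested. Relative to the CTL mean, the median member lay at -0.998, -0.64 and -0.80 in log2 in Nelfb-/- replicates 1, 2 and 3, and the summed adipocyte markers were also lowest in replicate 1 and highest in replicate 2. Within CTL, replicate 3 had the lowest adipocyte markers and a median member 0.01 above the CTL mean. That median covers 18 members below both other controls and 18 above both. Whether members follow the adipocyte markers was not tested.

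**Figure D5:**
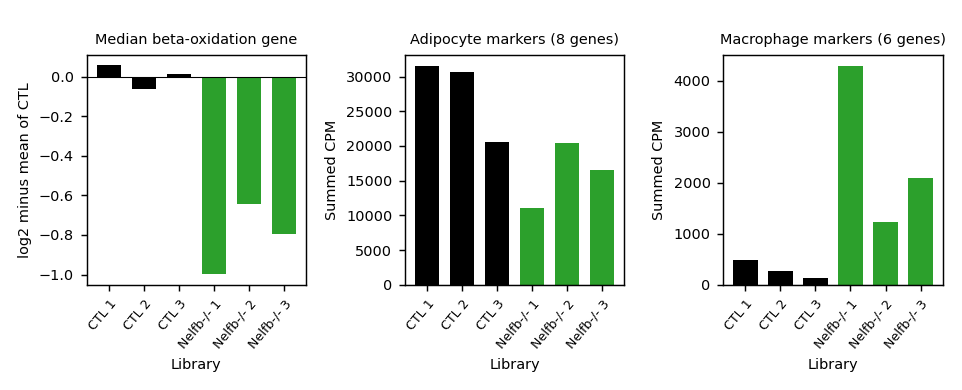
Bars give, for each library, the median over 38 members of log2(reads + 1) minus the mean of CTL on the left, and the summed CPM of adipocyte and macrophage markers in the middle and on the right, black for CTL and green for Nelfb-/-. The 3 Nelfb-/- libraries lie below 0 on the left, below all CTL libraries in the middle, and above them on the right. In the middle the groups nearly meet, at 20482 CPM in Nelfb-/- replicate 2 and 20575 CPM in CTL replicate 3.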

How the data were processed

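RNA was sequenced from 3 CTL and 3 Nelfb-/- cultures. The authors deposited 1 table of CPM values per gene, with an offset of 0.0001 added. The labels' processing notes name STAR 2.7, Partek 9.0.20.0202 and mm10, and the annotation, counting and strand setting were not given in the sources used here. Between 68.9% and 72.1% of low values (up to 20 reads, tolerance 0.02 reads) were whole multiples of 1 read, so no count test was run. The offset was removed, CPM were turned into reads at 1 depth for all libraries (22.3 M, 1e+06), and genes whose mean reached 10 reads (0.448 CPM) were tested with limma 3.58.1 in R 4.3.3 on log2(reads + 1) with an abundance trend. Fold changes on this scale understate those of low genes. Levels per kb used the principal transcript in GENCODE vM21. Close copies were found with BLAST 2.17.0. The members, the linked genes, the markers and the naming rule (each member by step, with library values for those past an adjusted p of 0.05, those changed 2-fold and the highest per kb of each step) were chosen with earlier results of these data known. One linked gene and 1 marker are counted in their lists and not reported here by name. Two-sided tests were used throughout.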

Additional observations from a re-analysis of the deposited data

How the results depend on the processing

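All members apart from Acsl6 reached the mean of 10 reads, and each group had 3 libraries. The effect of depth on the precision was not tested. Cpt1b, Echs1 and Pccb were called under each of 13 alternatives, and Etfb under all but the fit without Nelfb-/- replicate 3. With 1 library left out, the members called lower numbered 3 to 12 and higher 0 to 0, those past the adjusted p alone 3 to 18 lower and 0 to 3 higher, the linked genes called lower 0 to 9, and all genes called 426 to 2479 beside 1824. Without the abundance trend 0 members were called higher and 7 lower, and 0 passed the adjusted p alone as higher. Quantile normalization moved the median over all genes from 0.07 to -0.07 and the share of calls that were higher from 67.5% to 54.9%, with a member median of -0.83. Signs turned at Acaa2, Acad8, Acsl1, Acsm5 and Echdc1, none of which was called. The log2 fold change of Acsl1 was -0.0103 with median-ratio scaling and -0.0233 with quantile normalization. With 1 library left out it ranged from -0.23 to 0.38 for Acsl1, from -0.400 to 0.0264 for Acaa2, from -0.105 to 0.0194 for Acad8, from -0.282 to 0.0382 for Echdc1 and from -0.45 to 1.15 for Acsm5. The cause was not tested. Deviations of same-numbered libraries correlated at 0.52, -0.39 and 0.52 for numbers 1, 2 and 3 over 16252 genes, and CTL replicate 2 correlated best with Nelfb-/- replicate 1, so that the numbers pair no samples. With the replicate block 10 members were called lower and 1 higher, with Acss3 and Echdc2 added and Acadm lost, 9 linked genes lower, and 2175 genes in all.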
